A study of Mus musculus with 8 samples.

Results

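Myc, Pim1, Bcl3, Bcl2, Bcl2l1, Mcl1, Birc5, Hif1a and Vegfa are genes of growth and survival that have been described as targets of the transcription factor STAT3, and their chromatin accessibility was examined in mouse melanoma cell lines labelled as STAT3 knockout or wild type. ATAC-seq, in which the transposase Tn5 inserts adapters into open DNA, had been run on 4 lines with 2 libraries each. Lines 112 and 113 carried the genotype Stat3∆ and lines 119 and 73 the genotype Stat3fl, which is called wild type in the labels although its name denotes a floxed allele. Every line came from lymph node cells of a mouse with cutaneous melanoma that began at about 25 to 30 weeks, was kept as a pool of cells, and gave 50000 cells per transposition. In the sample titles each line has a p number of unstated meaning, which is 18 for line 112, 44 for 113, 14 for 119 and 68 for 73. What drove the recombination, and any other allele of the mice, is not given in the sources used here, and the labels use the word clone for what their growth text calls pools. The replicates of a line share that line, so a test between lines measures the spread between duplicate libraries, and a test between genotypes has 2 lines on each side.

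A region of the deposited count table was counted with one of the 9 genes when it lay inside the gene, or within 50 kb of it with that gene as the nearest protein-coding gene end. By this rule 108 of 148664 regions belonged to the 9 genes. Bcl2 held 43 of them, Bcl2l1 14, Pim1 11, Myc 9, Vegfa 9, Bcl3 8, Hif1a 7, Mcl1 6 and Birc5 1. A filter on low counts kept 101 regions. The other 7, which had 37 to 52 counts over the 8 libraries, were 5 regions of Bcl2, 1 of Pim1 and 1 of Hif1a. Of the 108 regions, 94 overlapped a peak call in at least 1 library and 15 did so in all 8. A region of Bcl2l1 at the far end of the gene also overlapped Cox4i2. Further regions inside Bcl2l1, at 1311 to 27347 bp from Cox4i2, had an end of Cox4i2 as their nearest gene end. The rule used position only and no measured value.

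STAT3 is phosphorylated downstream of cytokine and growth factor receptors, moves to the nucleus as a dimer and binds short palindromic DNA sites. Its described targets in tumour cells fall into a few roles: transcriptional regulators (Myc, which drives growth and proliferation, Bcl3, an atypical IκB protein that works with NF-κB subunits, and Hif1a, the oxygen-regulated subunit of the hypoxia factor), a kinase (Pim1), inhibitors of cell death (Bcl2, Bcl2l1, which encodes BCL-XL, Mcl1 and Birc5, which encodes survivin) and a secreted angiogenic ligand (Vegfa). In melanocytes Bcl2 is known as a survival gene under the lineage factor MITF. Accessibility shows where DNA is open and is no measure of transcription.

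The sequences 5′ of 3 start sites are shown because these promoters were the least and the most open of the 9 genes per length of region. RefSeq promoter windows of GRCm38.p6, 250 bases before to 50 bases after a start, matched 8 of the 9 genes with 12 start sites. The 250 bases before the start follow, 5′ to 3′ on the gene's strand, with matches to the motifs below in capitals. They lie at chr7:19822756-19823005 on the minus strand for Bcl3, chr1:106714291-106714540 on the minus strand for Bcl2, and chr12:73907617-73907866 on the plus strand for Hif1a.
Bcl3: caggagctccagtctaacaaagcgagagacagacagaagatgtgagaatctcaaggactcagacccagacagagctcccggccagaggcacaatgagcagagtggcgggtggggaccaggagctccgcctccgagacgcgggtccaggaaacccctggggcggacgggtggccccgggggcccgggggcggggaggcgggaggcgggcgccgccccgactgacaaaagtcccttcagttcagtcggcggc
Bcl2: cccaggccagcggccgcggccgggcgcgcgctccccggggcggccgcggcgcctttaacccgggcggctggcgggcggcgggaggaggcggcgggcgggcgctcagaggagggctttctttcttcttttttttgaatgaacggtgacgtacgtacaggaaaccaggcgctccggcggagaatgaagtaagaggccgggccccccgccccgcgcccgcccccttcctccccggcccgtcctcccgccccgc
Hif1a: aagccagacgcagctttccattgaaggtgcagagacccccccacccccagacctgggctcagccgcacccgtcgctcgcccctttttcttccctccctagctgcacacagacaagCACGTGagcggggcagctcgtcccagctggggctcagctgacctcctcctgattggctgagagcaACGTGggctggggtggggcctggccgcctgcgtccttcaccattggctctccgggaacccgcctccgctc
The motifs searched on both strands in the 12 windows were the STAT site TTCNNNGAA, the C/EBP site TTGCNNAA or ATTGCGCAA, the hypoxia site ACGTG and the E-box CACGTG, whose letters contain ACGTG on each strand. The STAT site had 0 matches in the 12 windows, against 8.30% of 32851 mouse promoter windows, and the C/EBP site also had 0, against 10.8%. ACGTG matched in the window of Hif1a (3 matches that start 135, 134 and 70 bases before the start site, the first pair being the strands of 1 CACGTG), the second start of Pim1 (58 and 57 bases before it, again 1 CACGTG) and the second start of Vegfa (211 bases before it). All promoter windows held ACGTG in 19.6% and CACGTG in 7.15% of cases. A match is a run of letters and no evidence of a bound factor, and these windows do not reach the regions inside and around the genes where most of the counts below lie.

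The 8 libraries held 2697546 to 7464336 counts, lowest in line 112 replicate 2 and highest in line 119 replicate 1, and 20387 to 94906 peak calls, lowest and highest in the same libraries. Every knockout library had fewer peak calls (20387 to 52250) than every wild-type library (56096 to 94906). Replicates correlated at r = 0.867 in line 112, and at 0.934, 0.958 and 0.933 in lines 113, 119 and 73 (log2 CPM, counts scaled so that a library sums to 1000000, over 134068 regions). The share of counts in promoter regions was 25.8% to 27.1% in line 112, 31.3% to 31.4% in line 113, 21.9% to 22.2% in line 119 and 31.2% to 31.3% in line 73. For Stat3 itself, counts summed over its 12 regions gave 73.1 to 85.3 CPM in the knockout libraries and 51.5 to 63.6 CPM in the wild-type libraries, with a log2 fold change of 0.51 ± 0.28 (SE) and adjusted p = 0.660 (edgeR quasi-likelihood test, 2 lines against 2). Which exons were removed is not given, so this does not check the labels. The 8 melanocyte markers, by their strongest region near a gene end, summed to 144 to 295 CPM in the knockout libraries and 90.6 to 124 CPM in the wild-type libraries. Among these, Dct was at 0.474 and 0.526 CPM and Mlana at 0.474 and 0 CPM in line 73, and Mlana was at 0.676 and 0.874 CPM in line 119. Pmel and Mitf were open in line 73, at 70.2 and 69.4 CPM and at 35.3 and 37.9 CPM. The remaining markers were low in that line, with Sox10 at 2.37 and 3.42 CPM and Tyr at 1.90 and 1.58 CPM. Tyrp1 was at 1.90 and 3.42 CPM there and Kit at 4.74 and 7.89 CPM. At these strongest regions every knockout library was above every wild-type library in 6 of the 8 (Tyr, Tyrp1, Dct, Mlana, Sox10 and Kit). For Mitf and Pmel the groups overlapped there. Groups without overlap, in either direction, also occurred at 26 of the 101 tested regions of the 9 genes. Their share over all regions is not given here. Only 3 of 8 lymphocyte markers had such a region, summing to 4.61 to 10.6 CPM in knockout and 8.04 to 13.0 CPM in wild-type libraries, and 6 of 8 markers of stroma, endothelium or epithelium summed to 45.3 to 58.1 and 43.96 to 88.4 CPM. Of these 6, Pdgfra (8.16 to 19.7 CPM in knockout against 0.711 to 1.92 CPM in wild-type libraries) and Lum (0.969 to 2.61 against 0.406 to 0.789 CPM) were higher and Pdgfrb (3.07 to 6.17 against 12.6 to 46.8 CPM) lower in every knockout library. Ptprc, Cd3g, Cd79a, Cd4 and Cd8a had no region near a gene end, and neither did Pecam1 and Cdh5.

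The starts of 8 of the 9 genes were open in all 4 lines, and that of Bcl3 was far lower. The region at the gene start overlapped a peak in all 8 libraries for 8 genes, and in 1 library for Bcl3. Per kb of region, the mean ± SD of the 4 line means was 62.1 ± 22.4 CPM for Bcl2, 51.5 ± 13.0 for Hif1a, 51.4 ± 13.5 for Pim1, 46.6 ± 7.67 for Bcl2l1, 34.7 ± 9.11 for Mcl1, 29.5 ± 9.56 for Myc, 23.8 ± 4.30 for Birc5, 22.9 ± 3.97 for Vegfa and 8.31 ± 2.04 for Bcl3. No neighbours in this order differed by more than their summed SDs, except Vegfa and Bcl3. For Myc, which had no entry in the promoter table, the region at a gene end was used (chr15:61984241-61985807).

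The start region of Bcl2 (chr1:106713981-106714641) had 35.8 and 22.4 CPM in line 112, 57.1 and 53.3 for 113, 28.7 and 26.4 for 119, and 50.7 and 54.2 for 73. Its level was thus high in lines 113 and 73 and low in lines 112 and 119, with the genotypes overlapping. The titles of the high lines carry the higher p numbers (44 and 68, against 18 and 14), and the part of whatever these stand for was not tested. Hif1a (chr12:73907428-73908181) followed the same order, with 39.6 and 31.1 CPM in line 112, 47.8 and 48.0 for 113, 24.3 and 28.7 for 119, and 48.4 and 42.6 for 73. The start of Bcl3 (chr7:19822412-19822912) held 1.66 and 5.14 CPM in line 112, 4.17 and 2.18 for 113, 4.46 and 5.42 for 119, and 4.51 and 5.78 for 73.

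**Figure D1:**
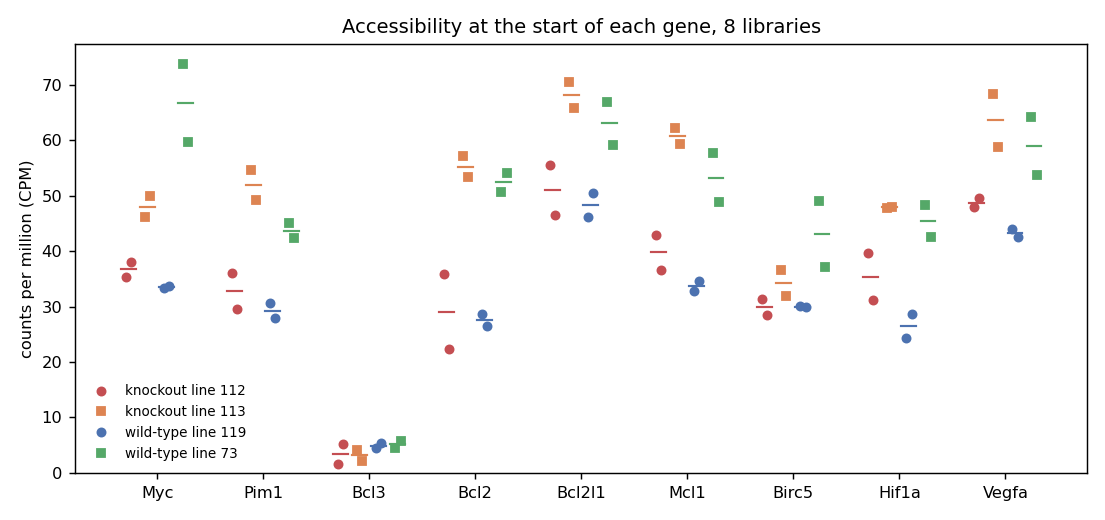
The plot shows CPM at the start region of each of the 9 genes (y axis) in the 8 libraries, as points by line with a bar at the line mean. By line mean, lines 113 and 73 lie above lines 112 and 119 at 8 of the genes, and Bcl3 stays at 1.66 to 5.78 CPM.

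Between genotypes, 0 of the 9 start regions passed the threshold of 0.05 on the adjusted p (edgeR quasi-likelihood test with Benjamini-Hochberg adjustment over 134068 regions, 2 lines against 2). Among all regions tested 0% passed, so the test called nothing anywhere, and the standard errors were large: the log2 fold change of knockout over wild type was 0.08 ± 0.58 at the Bcl2 start, 0.21 ± 0.56 at Hif1a, -0.27 ± 0.55 at Myc and -0.65 ± 0.82 at Bcl3. The median over the 9 starts was 0.09, the same as the 0.09 over 12099 promoter regions.

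Between lines, the median of the 9 starts lay near that of all promoter regions in each pair. Relative to line 119, line 113 was higher at 7 of the 9 starts past the threshold, with a median log2 difference of 0.56 against 0.66 over all promoter regions, of which 73.4% passed. Line 119 was lower than line 73 at 8 of 9 starts, with a median of -0.58 against -0.57 and 67.2% of promoter regions past the threshold. Line 112 was lower than line 73 at 4 starts (median -0.42 against -0.44, with 55.3% of promoter regions past the threshold) and lower than line 113 at 3 (median -0.41 against -0.51, with 48.5%). Between lines 112 and 119, 0 starts passed (median 0.13 against 0.10, with 30.9% of promoter regions), and line 113 was lower than line 73 at 1 (median 0.07 against 0.10, with 34.1%). These directions rest on the scaling: with factors from promoter regions, the starts had medians of -0.07 for 113 against 119 (1 higher, 2 lower), -0.03 for 119 against 73 (2 lower), 0.01 for 112 against 73 (2 lower) and 0.10 for 112 against 113 (1 lower). With total counts, 4 starts were higher in line 112 than in 119. The share of all counts that fell in promoter regions, given above for each line, moved with these differences, and its part in them was not tested.

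**Figure D2:**
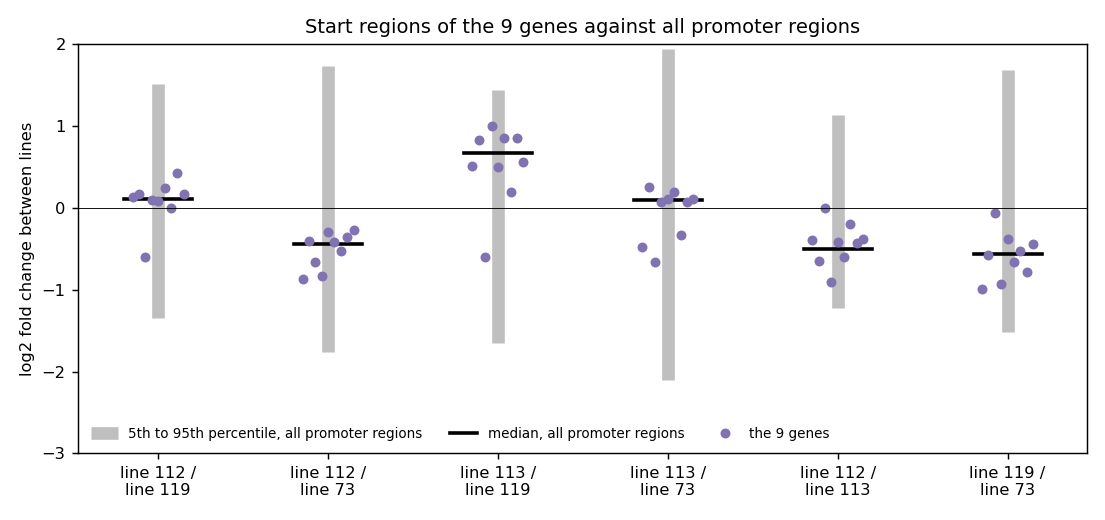
Each purple point is the log2 fold change between a pair of lines (first over second, y axis) at the start of 1 of the 9 genes, beside the median (black bar) and the 5th to 95th percentile (grey) of 12099 promoter regions. In each of the 6 pairs the 9 points lie on both sides of the median of all promoters and within the grey range.

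Over all 101 tested regions of the 9 genes, 0 passed the genotype test, as did 0% of the 134068 regions tested. Their lowest adjusted p was 0.157. Before adjustment 12 regions (11.9%) had p under 0.05, 7 of them higher in lines 112 and 113 and 5 lower, against 16.5% of all regions. DESeq2's Wald test on the same line sums called 3 of the 80 to which it gave an adjusted p (3.75%, against 7.58% of all such regions), all in Bcl2. With the library as unit, which treats duplicates of a line as independent, edgeR called 17 (16.8%, against 22.4%). The median log2 fold change of the 101 regions was -0.11, against -0.13 over all regions tested, and 44.6% of the 101 lay above 0, against 45.1%.

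A second description asked which regions divided the lines as the labels do, meaning that every comparison of line 112 or 113 with line 119 or 73, 4 in all, passed an adjusted p of 0.05 with the same sign when each library entered the model on its own. Of the 101 regions 14 (13.9%) did so, against 15.6% of all regions: 9 were higher in the knockout lines (7.89% of all regions were) and 5 were lower (7.73%). Bcl2 had 8 of the 14, and Myc, Pim1, Bcl3, Mcl1, Hif1a and Vegfa had 1 each. None of the 14 was at a gene start. They were sites of low to moderate counts, with 1 to 169 counts per library and a peak call in 0 to 6 of the 8 libraries. The rule compares lines, and with 2 lines per genotype a difference between lines and one between genotypes cannot be told apart. A lack of overlap between groups at regions it picked, read from these same libraries, follows largely from the choice and adds no support. The same holds for summed genes picked by this rule. Leaving out line 119 replicate 1, the deepest library, left 8 such regions in place of 14 (10.9% of all regions), and DESeq2 gave 7 (9.09% of all regions).

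Bcl2, which held 38 of the 101 tested regions, also held the largest log2 fold change between genotypes. It lay inside the long transcribed body of the gene and not at its start. The gene spans chr1:106538176-106714290 on the minus strand, and 8 of its 38 tested regions (21.1%, against 15.6% of all regions) divided the lines. Of these, 6 were upward and 2 downward in the knockout, as were 7.89% and 7.73% of all regions. By the genotype test 6 of the 38 (15.8%) had an unadjusted p under 0.05 (edgeR), against 16.5% of all regions. The 6 higher regions lay 5.4 to 96.6 kb into the gene from its start, with log2 fold changes of 1.56 to 3.23, and the 2 lower ones lay further on, at 148.7 and 166.7 kb, with -1.18 and -2.16. Summed over all 43 regions these differences did not show: the locus had 303 and 299.9 CPM in knockout lines 112 and 113, and 308 and 265 CPM in wild-type lines 119 and 73, a log2 fold change of 0.09 ± 0.28.

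The region 16.8 kb from the Bcl2 start (chr1:106697171-106697842) had 20.4 and 6.95 CPM in line 112, 10.3 and 13.3 for 113, 2.16 and 1.92 for 119, and 0.474 and 0.789 for 73. All 4 knockout libraries were above all 4 wild-type libraries. The log2 fold change was 3.23 ± 0.93 (SE), with an adjusted p of 0.157 by edgeR over lines and 0.00802 by DESeq2 over lines. It had a peak call in 3 knockout libraries and in 0 wild-type libraries.

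The region nearest to the start among the 6, at 5.4 kb (chr1:106708458-106709334), had 11.1 and 7.56 CPM in line 112 and 16.7 and 12.6 for 113. In the wild type it had 2.16 and 1.75 CPM in line 119 and 1.66 and 1.31 for 73, again with no overlap of the groups (log2 fold change 2.78 ± 0.88, edgeR adjusted p = 0.172, DESeq2 adjusted p = 0.0174). At 62.7 kb (chr1:106651153-106651998) the values were 15.7 and 3.93 CPM in line 112, 5.49 and 5.33 for 113, 1.22 and 1.40 for 119, and 0.948 and 1.05 for 73. The groups did not overlap, but replicate 1 of line 112 stood apart from its duplicate (2.75 ± 0.90, edgeR adjusted p = 0.180). A region beside it at 60.8 kb had 14.2, 10.6, 12.1 and 16.5 CPM in the knockout libraries and 4.60, 5.07, 3.56 and 1.84 CPM in the wild-type libraries, and was singled out after its values were seen. The region at 74.2 kb (chr1:106639635-106640536) had 5.93 and 6.04 CPM in line 112, 11.4 and 7.75 for 113, 1.35 and 0.874 for 119, and 1.66 and 2.37 for 73 (2.31 ± 0.89).

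The opposite pattern was clearest 166.7 kb from the start (chr1:106547291-106547867), 9.1 kb short of the end of the gene. This region had 4.03 and 3.93 CPM in line 112, 1.10 and 3.39 for 113, 14.6 and 13.99 for 119, and 12.8 and 13.1 for 73. The wild-type libraries were all higher, and a peak was called in 4 wild-type and 0 knockout libraries (log2 fold change -2.16 ± 0.85, edgeR adjusted p = 0.231). Every wild-type library also had more peak calls genome-wide than any knockout library. At 148.7 kb (chr1:106565252-106566027) the knockout libraries had 2.61, 2.72, 5.05 and 1.70 CPM and the wild-type libraries 6.09, 8.74, 6.40 and 6.57 CPM.

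Of these 8, the regions at 5.4, 16.8, 60.8, 62.7 and 166.7 kb divided the lines in all 15 of the other settings of scaling, filter, tool, block and omitted library that kept regions of this depth. The region at 74.2 kb did so in 14, that at 96.6 kb in 11 and that at 148.7 kb in 8. The most open region of the Bcl2 body, at 85.0 kb (chr1:106628704-106629920), did not: it had 28.9 and 23.0 CPM in line 112, 46.3 and 47.7 for 113, 35.0 and 28.7 for 119, and 33.7 and 37.9 for 73 (0.10 ± 0.57). The summed melanocyte markers, higher in all knockout libraries as given above, moved with the 6 higher Bcl2 regions, as did Pdgfra and Lum. Pdgfrb, of the same list as Pdgfra and Lum, moved the other way. The strongest regions of Mitf and Pmel near a gene end did not. Counts summed over all Mitf regions were 396 and 380 CPM in lines 112 and 113, and 216 and 196 CPM in lines 119 and 73. By such sums 5 of the 8 melanocyte markers, with Mitf, divided the lines, all upward (62.5%, against 12.1% of all genes). Sums for Pmel, Tyrp1, Sox10, Pdgfra and Lum did not divide them. Sums for Pdgfrb and Cdh5 divided the lines downward, with log2 fold changes of -1.26 and -0.71. The part of these markers in the result was not tested. In bulk libraries a site open in more of the cells and a site open to a greater degree in each cell cannot be told apart.

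**Figure D3:**
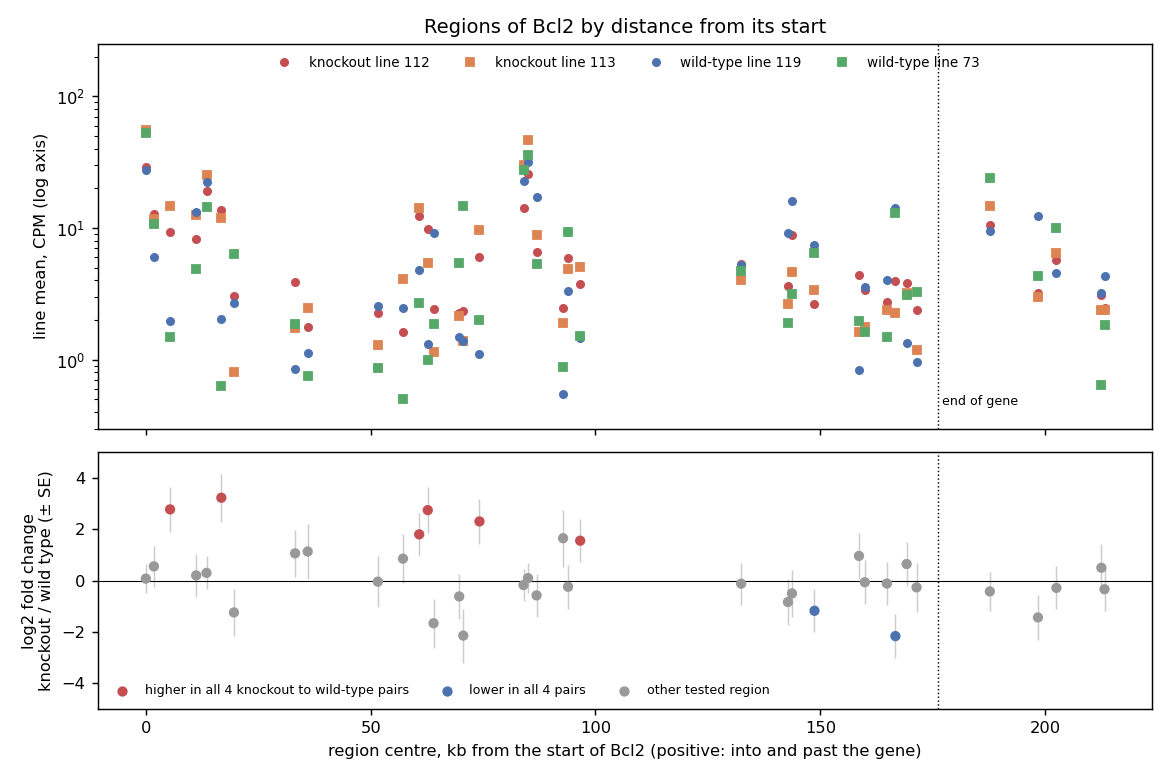
Tested regions of Bcl2 are placed by distance of their centre from the gene start in kb (x axis), with the line mean in CPM on a log axis above and the log2 fold change of knockout over wild type with its SE below. Regions higher in the knockout lines in all 4 pairs (red) lie 5.4 to 96.6 kb into the gene and the 2 lower ones (blue) at 148.7 and 166.7 kb.

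The other 6 regions that divided the lines belonged to 6 genes. In Bcl3 it was a region inside the gene, 5.2 kb from its start (chr7:19817065-19817948), with 16.8 and 11.2 CPM in line 112, 12.3 and 13.6 for 113, 22.9 and 23.1 for 119, and 22.8 and 28.4 for 73. Each wild-type library was above each knockout library (log2 fold change -0.85 ± 0.66, edgeR adjusted p = 0.548), and the region kept this in 9 of 15 settings.

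For Mcl1, whose protein restrains BAK and is turned over quickly, it was a region 10.5 kb upstream of the start (chr3:95647947-95648492), with 1.19 and 2.12 CPM in line 112, 1.54 and 0.727 for 113, 5.95 and 4.72 for 119, and 7.11 and 5.00 for 73. The knockout libraries were all lower (-2.08 ± 0.87, edgeR adjusted p = 0.253), and this held in 14 of 15 settings. For Pim1, a serine/threonine kinase that acts with MYC, a region 31.1 kb upstream (chr17:29459413-29459943) had 2.37 and 4.84 CPM in line 112, 2.41 and 1.94 for 113, 8.39 and 6.99 for 119, and 16.4 and 11.3 for 73. Again the groups did not overlap (-1.96 ± 0.86, edgeR adjusted p = 0.273, 12 of 15 settings).

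Higher in the knockout lines was a region 55.4 kb from the second start of Vegfa, beyond the far end of the gene (chr17:45969465-45970091). It had 4.74 and 2.72 CPM in line 112, 11.9 and 7.02 for 113, 1.08 and 1.57 for 119, and 1.19 and 1.58 for 73 (2.31 ± 0.90, edgeR adjusted p = 0.229, 10 of 15 settings). A region 33.6 kb upstream of the start site of Hif1a, singled out after its values were seen, had 8.78 and 5.74 CPM in line 112, 10.1 and 7.75 for 113, 1.62 and 4.90 for 119, and 2.13 and 2.37 for 73. A region 34.6 kb from Myc (chr15:61950179-61950707) had 4.74 and 2.12 CPM in line 112, 2.41 and 1.21 for 113, 0.406 and 0.525 for 119, and 0.711 and 0.263 for 73. This last one had no peak call in any library and kept its division of the lines in only 3 of 15 settings.

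**Figure D4:**
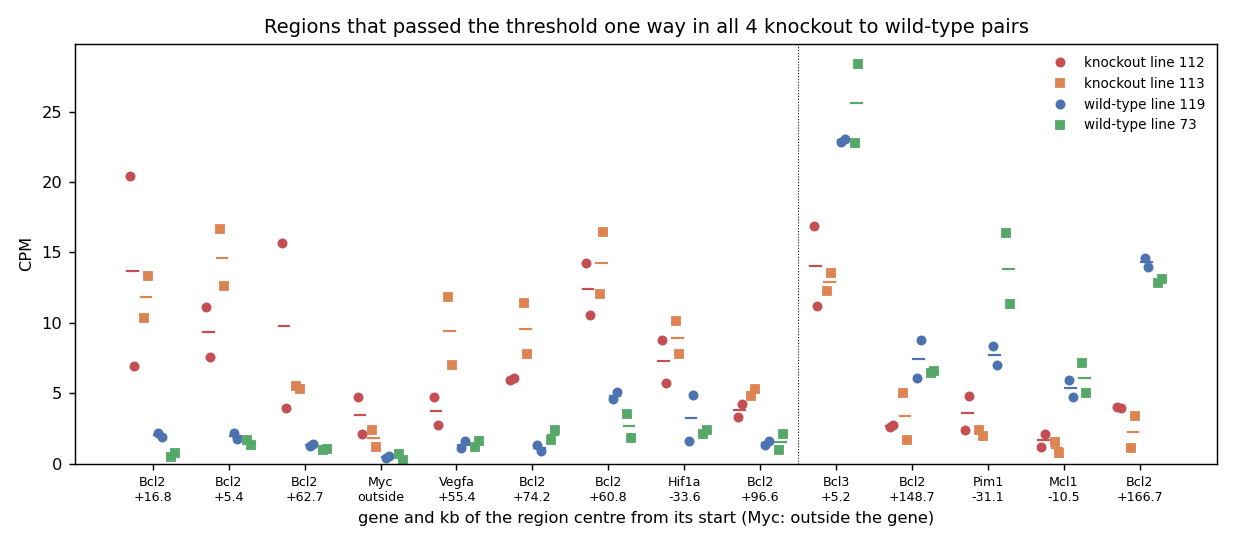
The 14 regions that passed in all 4 knockout to wild-type pairs are shown with CPM in each of the 8 libraries (y axis, points by line, bars at line means) and their distance from the gene start in kb (x axis). To the left of the dotted line the 9 regions are higher in lines 112 and 113, and to the right the 5 regions are lower in them.

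Counts were also summed over all regions of a gene, giving 1 value per gene and 17897 genes tested. None of the 9 genes passed the genotype test (0 of 9, with 0% of all genes), and 0 had an unadjusted p under 0.05, against 9.66% of all genes. DESeq2 also called 0, against 2.39% of all genes, and edgeR with the library as unit called 1, Bcl3 (adjusted p = 0.0226), against 12.6% of all genes. The median log2 fold change of the 9 was 0.08, against 0.01 over all genes.

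Bcl3 was the 1 gene of the 9 whose summed counts divided the lines by genotype (11.1%, against 12.1% of all genes, 7.07% in its direction). It had 79.4 and 61.4 CPM in line 112, 65.5 and 71.3 for 113, 103 and 95.3 for 119, and 97.2 and 105 for 73. The knockout lines averaged 69.4 ± 1.42 CPM and the wild-type lines 100.1 ± 1.27 CPM (mean ± SD, n = 2 lines each), and no knockout library reached a wild-type one. The log2 fold change over lines was -0.51 ± 0.28 (edgeR adjusted p = 0.654). In the pairs it was -0.48 for line 112 against 119, -0.50 for 112 against 73, -0.54 for 113 against 119 and -0.56 for 113 against 73, with edgeR adjusted p of 0.00310, 0.00228, 0.000658 and 0.000528. Without line 119 replicate 1 the first of these had an adjusted p of 0.0511, which ended the call. Of the 8 Bcl3 regions, 7 had a log2 fold change under 0, the one at 6.3 kb being at -0.010, and 0 had an unadjusted p under 0.05 (edgeR). Of all regions tested 45.1% lay above 0, with a median of -0.13, and the median of the regions within 5 Mb of the gene was 0.23. Stat3 itself, with the values given above, also divided the lines, upward in the knockout, as did 5.05% of all genes.

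Myc was highest in wild-type line 73. Its regions summed to 88.9 and 95.8 CPM in line 112, 84.2 and 88.3 for 113, 84.8 and 81.9 for 119, and 167 and 130 for 73. Line 73 was above each of the other 3 lines, with log2 differences of -0.69 ± 0.12 for line 112 against it (edgeR adjusted p = 5.69e-05), -0.79 ± 0.12 for line 113 (5.77e-06) and -0.83 ± 0.12 for line 119 (2.42e-06), while those 3 lines did not pass among themselves (with total counts as the scaling, 112 against 119 had an adjusted p of 0.0451). Between 2 lines of the same label, 119 and 73, 56.8% of all genes passed. The median over the 676 regions within 5 Mb of Myc was -0.25, -0.33 and -0.14 in these 3 pairs. At 37.9 kb from the gene (chr15:62028299-62028854) line 73 had 15.9 and 11.04 CPM, line 119 had 3.25 and 3.50, line 112 had 1.90 and 2.42 and line 113 had 1.54 and 0.969. A region 8.4 kb from the gene, chosen after its values were seen, had 13.3 and 9.99 CPM in line 73 and 0.699 to 2.12 CPM in the other 6 libraries.

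Bcl2l1 was lowest in line 73. Its 14 regions summed to 246 and 202 CPM in line 112, 261 and 255 for 113, 209 and 225 for 119, and 183 and 156 for 73. Some of these regions lay nearer to an end of Cox4i2, as given above. Line 73 was lower than line 112 (log2 difference 0.41 ± 0.11, edgeR adjusted p = 0.00391), line 113 (0.61 ± 0.11, 5.23e-05) and line 119 (0.36 ± 0.11, 0.00814). The difference from line 113 passed in every setting run, that from line 112 was lost without line 112 replicate 1 (adjusted p = 0.0992) or line 73 replicate 2 (0.0660), and that from line 119 was lost with total counts as the scaling (0.295), without line 119 replicate 2 (0.0931) and without line 73 replicate 2 (0.110). A single region inside the gene, 42.8 kb from its start and chosen after its values were seen, had 36.1 and 20.6 CPM in line 112, 49.4 and 43.6 for 113, 27.5 and 30.1 for 119, and 3.08 and 2.103 for 73. The start of Bcl2l1 (chr2:152830434-152831670) was open in the same line, at 66.9 and 59.2 CPM.

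Pim1 was lowest in line 119 and Hif1a had a site that was open mainly in that line. Summed counts of Pim1 were 78.9 and 99.8 CPM in line 112, 77.6 and 71.8 for 113, 62.7 and 58.2 for 119, and 105 and 80.7 for 73. Line 119 was lower than line 112 (0.55 ± 0.14, edgeR adjusted p = 0.00220) and line 73 (-0.62 ± 0.13 for 119 against 73, 0.000407), and its difference from line 113 had an adjusted p of 0.0593. The Hif1a region 31.8 kb past its start site (chr12:73939400-73939911) had 10.7 and 12.2 CPM in line 119, and 0.474 to 1.51 CPM in the other 6 libraries. The summed counts of Hif1a ran the other way and were lowest in line 119, with 71.0 and 64.7 CPM in line 112, 71.0 and 65.4 for 113, 49.9 and 59.2 for 119, and 70.7 and 63.3 for 73. Line 119 was lower than line 112 (0.33 ± 0.13, edgeR adjusted p = 0.0392), line 113 (0.33 ± 0.12, 0.0256) and line 73 (-0.31 ± 0.13 for 119 against 73, 0.0410). Of 18 other settings, these calls were lost in 9, 6 and 10, each without line 119 replicate 1 among them (adjusted p = 0.390, 0.331 and 0.409).

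The highest line was 1.38 times the lowest for Mcl1, 1.28 times for Birc5 and 1.29 times for Vegfa. This ratio was lower for Hif1a (1.25) and Bcl2 (1.16), and 1.48 to 1.78 for the remaining genes. The call of Mcl1 as lower in line 112 than in 73 (-0.46, edgeR adjusted p = 0.00170) was lost in 1 of the 18 settings, with regions overlapping the gene only. That between 113 and 73 (-0.30) was lost in 4 and turned to 0.12 in that setting, and the other calls of these 3 genes were lost in 2 to 9.

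**Figure D5:**
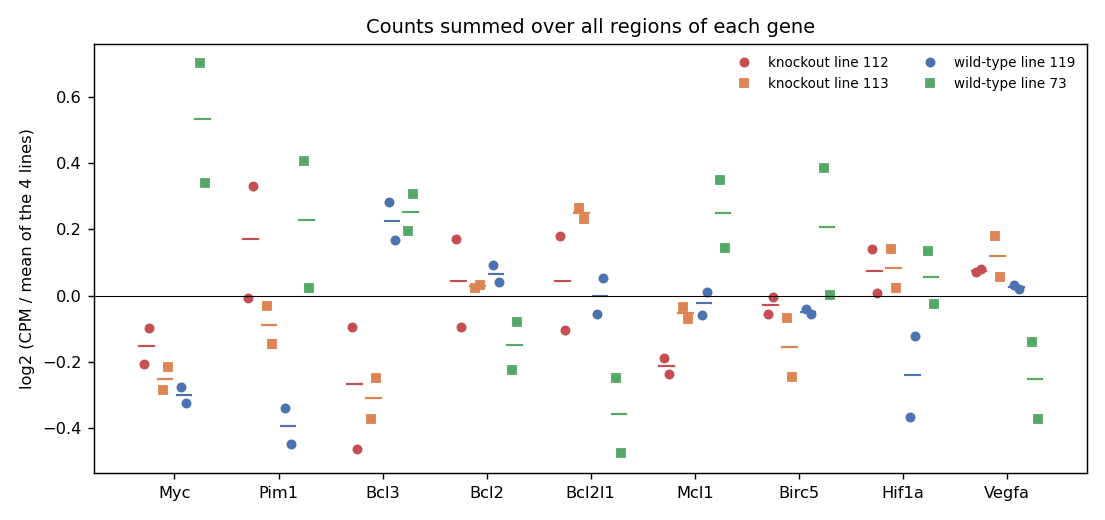
Counts summed over all regions of each gene are drawn as log2 of CPM over the mean of the 4 lines (y axis), with points for the 8 libraries and bars for the line means. For Bcl3 both wild-type lines lie above both knockout lines, for Myc line 73 lies above the other 3 lines, and for Bcl2l1 it lies below them.

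Differences between single lines were common in these genes whatever the labels. Between lines 112 and 119, 41 of the 101 regions passed (40.6%, against 47.9% of all regions). The counts were 49 for 112 against 73 (48.5%, against 51.9%), 55 for 113 against 119 (54.5%, against 60.3%) and 49 for 113 against 73 (48.5%, against 54.2%). Within the labels, 18 regions passed between knockout lines 112 and 113 (17.8%, against 24.5%) and 59 between wild-type lines 119 and 73 (58.4%, against 58.6%). With this scaling the wild-type pair differed at more of these regions than any of the 4 pairs across the labels. These pairs share libraries, so their counts are not independent. Without line 119 replicate 1 the count between 112 and 119 was 25. Between the knockout lines it was 29 without line 112 replicate 1 and 10 without line 113 replicate 1.

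Directions in these pairs moved with the scaling. With TMM factors from all regions, 5 regions were higher and 13 lower in line 112 than in 113, and with factors from promoter regions 23 were higher and 4 lower (14 and 6 with total counts). For 112 against 73 it was 17 and 32, then 33 and 15 (29 and 23 with total counts), for 113 against 119 it was 35 and 20, then 12 and 38, and for 119 against 73 it was 21 and 38, then 30 and 19. For 112 against 119, 22 and 19 became 37 and 18 with total counts. The median of all regions shifted by up to 0.62 on the log2 scale between these scalings. The sums of 9 genes gave 3 calls for 112 against 119 (48.7% of all genes), 5 for 112 against 73 (51.2%), 3 for 113 against 119 (58.1%), 6 for 113 against 73 (51.7%), 0 for 112 against 113 (40.2%) and 6 for 119 against 73 (56.8%). Of those, 2 higher and 1 lower for 113 against 119 became 0 and 4 with promoter factors, 4 and 1 with total counts and 1 and 1 with DESeq2 size factors. For 112 against 119, 2 and 1 became 1 and 2. For 119 against 73, 2 and 4 became 3 and 2 with promoter factors and 0 and 5 with total counts, and for 112 against 73, 2 and 3 became 1 and 3 with total counts and 3 and 3 with promoter factors.

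Genes of the same pathways were read from lists of related genes, by summed counts, with 0 passing the genotype test in any list. Of 14 further BCL2 family genes, 2 divided the lines by genotype, both lower in the knockout lines (14.3%, against 12.1% of all genes). These were Bok (40.1 and 29.9 CPM in lines 112 and 113, 55.03 and 85.5 in lines 119 and 73) and Pmaip1, which encodes the BH3-only protein NOXA (25.7 and 17.3 against 38.5 and 57.5 CPM). Of 12 relatives of Birc5, Pim1 and Myc, 2 divided the lines (16.7%, against 12.1% of all genes). Pim2 was higher (22.7 and 29.1 against 14.7 and 4.78 CPM) and Mycl was lower in the knockout lines (33.7 and 32.1 against 52.9 and 58.3 CPM). Of 16 genes of hypoxia and VEGF signalling 4 divided the lines (25.0%, against 12.1% of all genes). Adm, which encodes adrenomedullin, was higher (106 and 94.0 against 36.6 and 54.8 CPM). Egln1, a prolyl hydroxylase that marks HIF proteins for degradation, the ligand gene Vegfd and the glucose transporter gene Slc2a1 were lower, with log2 fold changes of -0.81, -1.64 and -0.46.

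Of 19 tested genes in a list of other described STAT3 targets, 5 divided the lines (26.3%, against 12.1% of all genes). Of these, 1 was higher and 4 were lower in the knockout lines, as were 5.05% and 7.07% of all genes. This list, like the others, was chosen with earlier results of these data known. Cdkn1a, which encodes the cell cycle inhibitor p21, was higher in the knockout lines (132 and 144 against 101 and 103 CPM). Timp1, an inhibitor of metalloproteinases, had 10.4 and 6.30 CPM in lines 112 and 113 and 46.1 and 44.6 CPM in lines 119 and 73, a log2 fold change of -2.46 ± 0.40 (edgeR adjusted p = 0.106). Fgf2, a growth factor gene, had 29.3 and 32.8 CPM against 94.7 and 107.9 CPM (-1.72 ± 0.30, edgeR adjusted p = 0.109). Fosl1 and Twist1 were also lower (-0.99 and -0.65). The medians of the 4 lists were 0.03, 0.06, -0.14 and -0.24, in the order given here, against 0.01 over all genes.

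The genes whose summed counts were most alike to Bcl3 over the 8 libraries were Spata22 (Pearson r = 0.997 of log2 CPM), Slc25a24 (0.993) and Hsbp1 (0.990), among 283 of 17896 genes with r over 0.9. For Bcl2l1 they were Aspdh (0.976), Insr (0.973) and Ckm (0.972), among 272. The 8 points are 4 lines in duplicate and share their library scaling, so these values describe a likeness of profile over lines.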

How the data were processed

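Per the labels, ATAC-seq libraries were made with digitonin in the transposition mix and fragments over 1200 bp were excluded. The authors deposited raw counts, whole numbers for 148664 regions of 501 to 3708 bp in 8 libraries, and a peak list per library with each peak's score, its enrichment ratio (fold) and −log10 values of p and q, as called. Only peak positions were used, with an overlap of at least 1 bp. The submitters' processing notes name Bowtie2 2.2.4, Picard 1.118, MACS2 2.1.1.20160309 and the builds mm10 and GRCm38, with no roles. Whether reads, fragments or cuts were counted, and how duplicates or the transposase shift were treated, is not given in the sources used here, so counts may include PCR duplicates.

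Regions were assigned with RefSeq genes of GRCm38.p6, and coordinates are of GRCm38, from 1. Distances from a start run from the region centre to the nearest start site of that gene in the promoter table. For Myc they run to the nearest gene end. filterByExpr grouped by line (minimum count 10, minimum total 15) kept 134068 regions. Tests were two-sided edgeR 4.0.16 quasi-likelihood tests (robust fit, TMM, R 4.3.3), on counts summed per line for genotype and on 8 libraries with a mean per line for pairs, with Benjamini-Hochberg adjustment over all features and a threshold of 0.05. The SE is the log2 fold change divided by the square root of F. CPM uses TMM library sizes, and log2 CPM a prior count of 2. Alternatives used DESeq2 1.42.0, other scalings, filters and windows, and omitted libraries. The tests were tested on simulated data.

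The 9 genes, the related lists and the markers were chosen with earlier results of these data known. Regions named with values were, per gene, the promoter region and the other region with most counts and the one with the smallest genotype p, and the regions that divided the lines, up to 6 in each direction by p. For the genes with the smallest p in each direction the 3 most correlated genes were named. Replicate numbers did not pair the lines, so no block was used.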

Additional observations from a re-analysis of the deposited data

Results flagged for a closer look

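In 6 of 80 sets of 4 libraries of 1 genotype, a single library lay further from the other 3 than Dixon's limit. For 4 independent values chance alone gives about 1 in 20, but each set is 2 lines in duplicate, so this rate need not hold here. The Pim1 region 31.1 kb upstream was at 4.84 CPM in line 112 replicate 2, and at 1.94 to 2.41 CPM in the other knockout libraries. The Bcl3 region 5.2 kb from the start was at 28.4 CPM in line 73 replicate 2, with 22.8 to 23.1 CPM in the remaining wild-type ones. The Bcl2 region at 62.7 kb was at 15.7 CPM in line 112 replicate 1, with 3.93 to 5.49 CPM in the others. In Bcl2l1, a region 22.5 kb from the start had 26.3 CPM in line 112 replicate 2 against 44.6 to 46.5 CPM, and a region at 16.7 kb had 1.84 CPM in line 73 replicate 2 against 4.27 to 4.55 CPM. The summed counts of Birc5 were 44.5 CPM in line 73 replicate 1 and 32.7 to 34.1 CPM in the remaining wild-type ones.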

How the results depend on the processing

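Counts past the threshold moved by over 1.5 times as follows, and the cause was not tested except where fewer regions or libraries were used. The regions called between genotypes went from 0 to 17 with the library as unit and to 3 with DESeq2, and summed genes from 0 to 1 with the library as unit. With at least 50 counts per library, which removed most regions, the pairs gave 9 (112 against 119), 14 (112 against 73), 10 (113 against 119), 16 (113 against 73), 5 (112 against 113) and 14 (119 against 73), and 4 regions divided the lines, all lower in the knockout and none among the 14, of which 13 were not tested there. Only regions overlapping a gene gave 24, 24 and 27 for 112 against 119, 112 against 73 and 113 against 73, 38 for 119 against 73, and 9 that divided the lines. DESeq2 gave 25, 31 and 8 for 112 against 119, 112 against 73 and 112 against 113, and 7 that divided the lines. With 1 library left out, the region counts ranged from 25 to 48 (112 against 119, lowest without line 119 replicate 1), 35 to 52 (112 against 73), 37 to 62 (113 against 119), 34 to 56 (113 against 73), 10 to 29 (112 against 113) and 41 to 66 (119 against 73), and those that divided the lines from 8 to 14. The summed genes ranged from 1 to 3, 3 to 6, 1 to 4, 3 to 7, 0 to 2 and 3 to 7 in the same pairs, and from 0 to 1 for division of the lines (0 without line 119 replicate 1, which left Bcl3 at an adjusted p of 0.0511).

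For summed genes, total counts gave 5 calls for 113 against 119, DESeq2 gave 1 there and 3 for 119 against 73, and promoter factors, an alternative chosen after seeing the data, gave 1 for 112 against 113 and 2 genes that divided the lines (Bcl3 and Mcl1, both lower in the knockout lines). The replicate numbers did not pair the samples (correlations of deviations from -0.037 to 0.0044). A replicate block gave 3 summed genes for 119 against 73 in place of 6, and left 14 regions dividing the lines.

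Some signs turned. The Bcl3 region at 6.3 kb went from -0.010 to 0.038 (total counts) and 0.064 (regions with a peak), and with 1 library left out ranged from -0.20 to 0.13. The Bcl2 region at 85.0 kb went to -0.042 and the summed Bcl2 to -0.0067 with promoter factors. With 1 library left out the Bcl2 start ranged from -0.059 (without line 112 replicate 1) to 0.17 and the summed Pim1 from -0.026 (without line 73 replicate 2) to 0.20. The summed Mcl1 went from -0.24 to 0.17 with regions overlapping the gene only. Among calls between lines, the summed Mcl1 for 113 against 73 went from -0.30 to 0.12 in that setting and the summed Bcl2l1 for 113 against 119 from 0.25 to -0.07 with promoter factors.

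Depth limits the weak sites: line 112 replicate 2 had 2697546 counts, and regions that divided the lines had as few as 1 count in a library.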
